A study of Mus musculus with 6 samples.

Results

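The genes described here are 39 enzymes, transporters and regulators of glycolysis, gluconeogenesis and the pentose phosphate pathway in mouse intestinal organoids. They are a list of gene symbols, and all 39 were found in a table of 24956 rows. Of the 39, 35 averaged at least 1 RPKM over the 6 libraries and were tested, where RPKM is the number of reads scaled to transcript length and library depth. The other 4 (Slc2a3, Hk3, Eno2 and Pck1) lay below that limit, with Slc2a3 the nearest below it at a mean of 0.175 RPKM and Pgam2 the nearest above it at 1.11 RPKM. The organoids, self-organising cultures of gut epithelium, carried the Apc Min genotype in both groups, a truncating allele of the scaffold of the beta-catenin destruction complex. RNA was sequenced from 3 libraries of organoids in low glutamine medium and from 3 libraries in control medium. The sources used here give neither the glutamine concentrations nor the time in the medium, the segment of gut, or the age and number of mice. Replicates are described as biological, without saying whether they are separate animals or cultures of 1 line. The p-values therefore measure the spread between these samples, which may be technical.

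Glycolysis splits glucose into pyruvate in the cytosol and yields ATP and NADH. Lactate dehydrogenase turns pyruvate into lactate, which leaves the cell through monocarboxylate transporters, and gluconeogenesis runs the route backwards with its own enzymes at the irreversible steps. The pentose phosphate pathway branches off at glucose 6-phosphate and supplies NADPH and ribose. In the small intestine, absorptive enterocytes take up dietary sugar and carry enzymes otherwise known from liver, among them the liver-type pyruvate kinase and glucose-6-phosphatase.

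Estimated depths were 28.3 to 34.0 M reads per low glutamine library and 24.4 to 35.4 M reads per control library. Xist, the RNA that silences an X chromosome, stood at 0.0237 to 0.035 RPKM in low glutamine libraries, against 83.1 to 90.5 RPKM in control libraries. The Y-linked gene Eif2s3y stood at 25.2 to 31.4 RPKM in low glutamine libraries and was listed at 0 in the control libraries. The sex-linked difference and the medium coincided in all 6 libraries, so they cannot be told apart for any gene below. The ribosomal RNA precursor Rn45s took 9778, 12252 and 6788 RPKM in low glutamine replicates 1 to 3, against 1898, 2074 and 6680 RPKM in control replicates 1 to 3. The epithelial markers Epcam, Cdh1, Krt8, Krt18, Krt19, Vil1, Cdx2 and Cldn7 were present in both groups and summed to between 2648 and 2732 RPKM in low glutamine libraries and 2161 to 2365 RPKM in control libraries. Of these 8, Epcam, Cdh1, Krt8 and Krt18 rose and the other 4 fell, and Krt18 averaged 573 RPKM in low glutamine and 233 RPKM in control. All 8 stromal markers and 7 of 8 immune markers stayed below 1 RPKM in every library. Acta1 made up nearly all of the muscle marker sum of 40.1 to 43.7 RPKM in low glutamine libraries and 14.2 to 15.4 RPKM in control libraries, and the other 5 muscle markers were below 1 RPKM.

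Most of the pathway genes were lower in low glutamine. By limma, 25 of the 35 tested genes fell, 4 rose and 6 did not pass the threshold, an adjusted p of 0.05. Among all 11082 tested genes, 30.3% fell and 36.1% rose at the same threshold, together 66.4%. The split over all genes depended on the scaling, with 3360 genes falling and 4001 rising as deposited, 2388 and 6021 after rescaling to a common RPKM sum without Rn45s, and 4491 and 3282 after median-of-ratios scaling. Among the 35 genes those scalings left 24 and 29 falling and 7 and 4 rising. The median log2 fold change, low glutamine over control on the log2(RPKM + 1) scale, was -0.39 for the 35 genes and 0.03 for all tested genes. At least a 2-fold fall was seen in 7 of the 35 genes (G6pc, Fbp1, Pklr, Slc16a3, Pfkfb4, Pfkp and Gpi1) and at least a 2-fold rise in 2 (Ldhb and Hk2). Over all tested genes those shares were 4.05% and 4.22%. The 3 low glutamine values lay wholly below the 3 control values for 27 of the 35 genes and wholly above them for 4, where the shares over all genes were 31.3% and 38.9%, together 70.2%. Summed over the 39 genes, RPKM came to between 4875 and 5443 in low glutamine libraries and to between 7635 and 7883 in control libraries. That was 1.49% to 1.57% of all RPKM in low glutamine libraries, against 2.07% to 2.13% in control libraries.

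**Figure D1:**
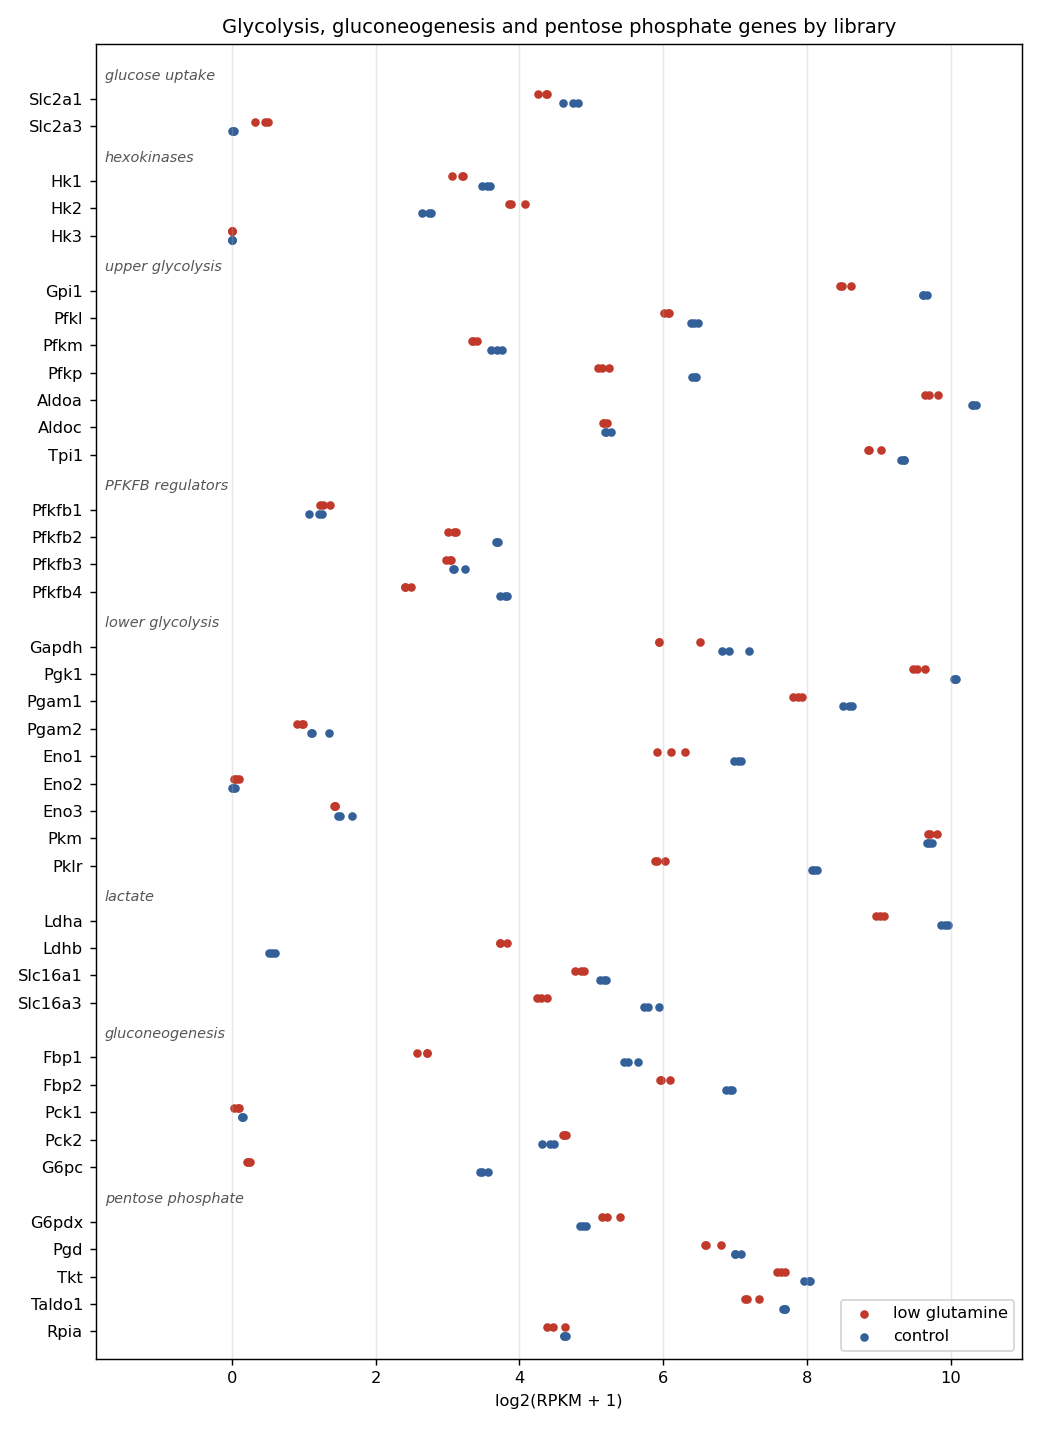
Level of each of the 39 genes in each library as log2(RPKM + 1), grouped by role, with low glutamine libraries in red above control libraries in blue. For 27 of the 35 tested genes the red points lie wholly left of the blue ones, and Ldhb, Hk2, Pck2 and G6pdx show the reverse.

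Replicate spread was small beside these differences. The median coefficient of variation of the tested genes was 5.51% in low glutamine and 3.38% in control. Gapdh was the most variable in low glutamine at 24.4%, and stood at 14.2% in control. Replicate 3 gave the highest low glutamine value for 28 of the 35 genes and for 66.6% of all tested genes. The median log2 difference of the 35 genes was -0.41, -0.54 and -0.32 in the pairs of libraries numbered 1, 2 and 3.

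The falls stood beside lower enterocyte markers and higher crypt base markers. All 11 enterocyte markers fell (Fabp1, Fabp2, Sis, Lct, Apoa1, Apoa4, Krt20, Mttp, Slc5a1, Slc2a5 and Treh), and their sum was 275 to 312 RPKM in low glutamine libraries, against 2454 to 2656 RPKM in control libraries. All 6 crypt base markers rose (Lgr5, Olfm4, Ascl2, Smoc2, Axin2 and Rnf43), with sums of 1372 to 1545 RPKM in low glutamine libraries and 691 to 755 RPKM in control libraries. In such bulk samples fewer cells of a type and less RNA per cell cannot be told apart, and the part of cell composition in the changes below was not tested.

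The promoters of 5 genes are given here so that genes at opposite ends of the response can be read side by side. They are the steepest fall and the steepest rise among the 35 (G6pc and Ldhb), Pklr, whose relative Pkm did not pass, Hk2, which rose, and the abundant Ldha, which fell. Each window is RefSeq's, on GRCm38.p6, from 250 bases before to 50 bases after an annotated start, written 5′ to 3′ along the gene. Capitals mark matches on either strand to the HIF core ACGTG, the E-box CACGTG (which contains that core), the TCF/LEF core CTTTGAT, the GC box GGGCGG, or a spaced pair of E-box-like motifs, a form of the carbohydrate response element bound by ChREBP and its partner Mlx. The windows are chr3:89136373-89136672 (plus strand, the downstream of 2 Pklr starts), chr11:101367466-101367765 (plus), chr7:46845554-46845853 (plus, the upstream of 2 Ldha starts), chr6:82774405-82774704 (minus) and chr6:142507908-142508207 (minus).
Pklr: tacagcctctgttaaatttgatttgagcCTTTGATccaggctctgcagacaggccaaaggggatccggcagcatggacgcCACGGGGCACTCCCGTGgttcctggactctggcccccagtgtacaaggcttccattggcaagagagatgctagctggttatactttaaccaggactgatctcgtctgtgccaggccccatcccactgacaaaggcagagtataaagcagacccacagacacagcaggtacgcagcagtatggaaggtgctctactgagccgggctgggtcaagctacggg
G6pc: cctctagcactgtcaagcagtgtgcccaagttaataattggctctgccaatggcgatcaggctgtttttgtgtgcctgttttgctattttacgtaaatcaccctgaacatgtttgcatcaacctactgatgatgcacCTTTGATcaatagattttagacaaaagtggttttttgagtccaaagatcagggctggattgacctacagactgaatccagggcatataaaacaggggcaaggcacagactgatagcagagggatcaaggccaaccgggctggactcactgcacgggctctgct
Ldha: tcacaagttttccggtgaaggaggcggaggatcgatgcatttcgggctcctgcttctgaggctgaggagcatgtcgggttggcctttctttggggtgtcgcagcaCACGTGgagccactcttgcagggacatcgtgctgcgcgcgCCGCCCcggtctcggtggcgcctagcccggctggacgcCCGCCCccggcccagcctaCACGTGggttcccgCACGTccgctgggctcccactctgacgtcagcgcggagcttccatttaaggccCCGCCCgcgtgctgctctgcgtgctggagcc
Hk2: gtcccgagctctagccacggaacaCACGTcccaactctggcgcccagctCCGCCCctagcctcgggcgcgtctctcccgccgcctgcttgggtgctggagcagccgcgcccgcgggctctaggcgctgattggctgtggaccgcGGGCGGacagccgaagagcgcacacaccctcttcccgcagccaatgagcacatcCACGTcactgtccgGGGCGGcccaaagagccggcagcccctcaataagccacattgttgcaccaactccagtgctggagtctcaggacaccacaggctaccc
Ldhb: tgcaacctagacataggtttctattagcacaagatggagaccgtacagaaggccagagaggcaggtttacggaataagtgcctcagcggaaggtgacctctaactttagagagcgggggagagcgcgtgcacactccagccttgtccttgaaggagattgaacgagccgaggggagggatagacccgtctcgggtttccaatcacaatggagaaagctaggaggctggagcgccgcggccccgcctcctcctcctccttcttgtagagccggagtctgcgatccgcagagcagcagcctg

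In the Pklr window the carbohydrate response element form ran over positions -170 to -154 from the annotated start, and the TCF/LEF core began at -222. In rat the liver-type Pklr promoter is the textbook case of that element. Windows on chromosome 18 were left out of all window counts here. Of all 32851 other windows, 15 (0.0457%) held the form, and of the 57 windows of 38 pathway genes only this Pklr window did. The form was not among the motifs planned for the search, and the element is known from this promoter. A match in Pklr was thus likely beforehand, and its rarity elsewhere tests nothing about Pklr. The Ldha window held the E-box at -145 and at -48, each with the HIF core inside it, and a further HIF core at -34. The Hk2 window also held 2 HIF cores, at -226 and -52. G6pc had a TCF/LEF core at -113, and Ldhb had none of these letters in this window. The other annotated windows of Pklr and of Ldha, not printed above, held 0 matches to these motifs. The HIF core was present in 22 of the 57 windows (38.6%), against 26.2% of the 11164 windows of tested genes and 19.6% of all windows. By gene, 18 of the 38 had it in at least 1 window, among them 12 of the 25 that fell and 2 of the 4 that rose. No share by gene is given for other genes. Of the 38 genes, 12 had more than 1 window, and such windows can count a site more than once. For Aldoa, a HIF core and GC boxes recur with the same spacing in 2 windows. The E-box was in 6 windows (10.5%, and 10.5% for tested genes and 7.15% for all), the TCF/LEF core in 3 (5.26%, against 2.64% and 3.73%) and the GC box in 30 (52.6%, against 63.7% and 35.7%). These are letter matches, and no binding was measured. No promoter window was matched for Slc2a3.

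**Figure D2:**
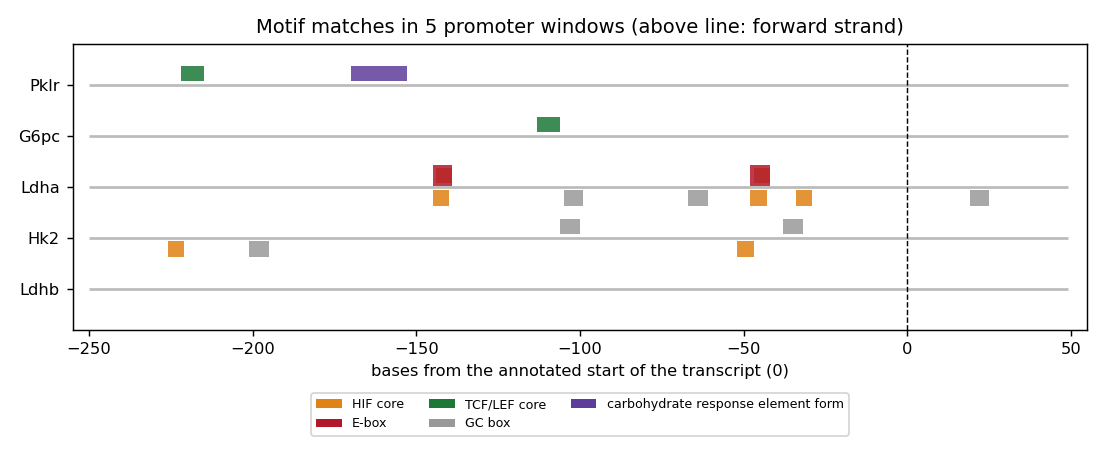
Positions of the motif matches in the 5 promoter windows printed above, in bases from the annotated start, with forward-strand matches above each line and reverse-strand matches below it. The carbohydrate response element form appears in Pklr, HIF cores appear in Ldha and Hk2, and the Ldhb line is empty.

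Of the 2 glucose transporters and 3 hexokinases among the 39 genes, Slc2a1 and Hk1 fell and Hk2 rose. Slc2a1 (GLUT1, the widely expressed glucose transporter, chromosome 4, 119108745 to 119137330) had 19.8, 18.1 and 19.6 RPKM in low glutamine against 25.8, 27.1 and 23.4 RPKM in control. The groups did not overlap, and the fall was 0.39 on the log2 scale (SE 0.06, limma adjusted p = 1.6e-04). Slc2a3 (GLUT3), a high-affinity transporter known from neurons, was not tested and stood at 0.371, 0.245 and 0.411 RPKM in low glutamine against 0, 0.0143 and 0.0103 RPKM in control. Those control values rest on at most 2 estimated reads per library, and the low glutamine ones on 32 to 50.

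Hexokinases trap glucose in the cell as glucose 6-phosphate. Hk2, the inducible form that binds mitochondria (chromosome 6, 82725025 to 82774454), had 13.7, 13.5 and 15.9 RPKM in low glutamine against 5.25, 5.7 and 5.84 RPKM in control. Every low glutamine value exceeded every control value, and the log2 fold change was 1.22 ± 0.07 (SE, limma adjusted p = 7.8e-09). Hk1, the widely expressed form, fell and averaged 7.93 ± 0.481 RPKM in low glutamine and 10.7 ± 0.494 RPKM in control (SD, n = 3 each; limma adjusted p = 8.5e-05). Hk3 was listed at 0 in all 6 libraries. Hk2 thus made up 62.4%, 64.7% and 66% of the summed RPKM of Hk1, Hk2 and Hk3 in low glutamine, against 32.8%, 33.8% and 36.5% in control.

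A hexokinase gene outside the 39 was more abundant in control than Hk1 or Hk2. Hkdc1, a hexokinase domain protein, averaged 9.77 ± 1.19 RPKM in low glutamine and 53.1 ± 0.952 RPKM in control (SD, n = 3 each), a log2 fold change of -2.33 (limma adjusted p = 3.4e-11). With Hkdc1 added to the sum, an addition made after these values were seen, the hexokinase total was 32.1 ± 2.76 RPKM in low glutamine and 69.4 ± 0.564 RPKM in control. Hk2 was 44.8% of this wider sum in low glutamine and 8.07% in control, and Hkdc1 30.4% in low glutamine and 76.5% in control. So the total over Hk1, Hk2 and Hk3 was higher in low glutamine (22.3 ± 1.59 against 16.3 ± 0.484 RPKM), while the wider total was lower.

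In upper glycolysis 6 of 7 genes fell and 0 rose, where 30.3% of all tested genes fell and 36.1% rose. The remaining gene, Aldoc, changed sign with the scaling. Gpi1, which interconverts glucose 6-phosphate and fructose 6-phosphate (chromosome 7, 34201327 to 34230336), fell by more than 2-fold. It had 359.9, 353 and 391 RPKM in low glutamine against 780.1, 818 and 786 RPKM in control, with no overlap (log2 fold change -1.11 ± 0.07, limma adjusted p = 2.1e-08). Of its transcript, 25.3% of all 50-base stretches also occurred in transcripts of other GENCODE genes.

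Phosphofructokinase catalyses the committed step of glycolysis and is built from liver, muscle and platelet type subunits. The platelet type Pfkp (chromosome 13, 6579874 to 6649060) had 34.6, 33 and 36.8 RPKM in low glutamine against 83.6, 87.1 and 85.8 RPKM in control (log2 fold change -1.27 ± 0.06, limma adjusted p = 1.1e-09). Its transcript shares 17.1% of its 50-base stretches with the overlapping neighbour Pitrm1, which moved the other way, at 31.3 ± 1.04 RPKM in low glutamine and 20.9 ± 1.02 RPKM in control. The liver type Pfkl, at 66.1, 63.4 and 66.5 RPKM in low glutamine and 85.2, 88.6 and 83.1 RPKM in control, fell by 0.39. The muscle type Pfkm was the least abundant and fell by 0.31 (9.34 and 11.8 RPKM on average in low glutamine and control). Pfkp made up 31.8% ± 0.704 of the phosphofructokinase sum in low glutamine and 46.7% ± 0.801 in control (SD, n = 3 each).

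Aldolase splits fructose 1,6-bisphosphate into triose phosphates. The ubiquitous Aldoa had 827, 798 and 904 RPKM in low glutamine against 1253, 1308 and 1265 RPKM in control, a log2 fold change of -0.60 ± 0.07 (limma adjusted p = 1.5e-05). The brain type Aldoc did not pass, with overlapping values of 34.7, 35 and 36.1 RPKM in low glutamine and 36, 37.8 and 35.5 RPKM in control. Tpi1, which interconverts the triose phosphates, fell by 0.42 (483 RPKM in low glutamine, 646 RPKM in control).

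The PFKFB enzymes set the level of fructose 2,6-bisphosphate, the main activator of phosphofructokinase. Pfkfb4 (chromosome 9, 108988272 to 109032236) had 4.29, 4.32 and 4.62 RPKM in low glutamine against 12.2, 13.2 and 12.9 RPKM in control. The groups were far apart, at a log2 fold change of -1.34 ± 0.05 (limma adjusted p = 4.5e-10). Pfkfb2, the heart type, fell by 0.62, with 7.51, 7.03 and 7.68 RPKM in low glutamine and 12, 11.9 and 11.8 RPKM in control. Pfkfb3, the inducible form with high kinase activity, averaged 7.1 ± 0.197 RPKM in low glutamine and 7.8 ± 0.569 RPKM in control (SD, n = 3 each; limma adjusted p = 0.093). The X-linked Pfkfb1, the liver type, averaged 1.44 and 1.27 RPKM in low glutamine and control (limma adjusted p = 0.22). Pfkfb4 was the most abundant of the 4 in control at 37.8% of their sum and made up 21.7% in low glutamine.

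**Figure D3:**
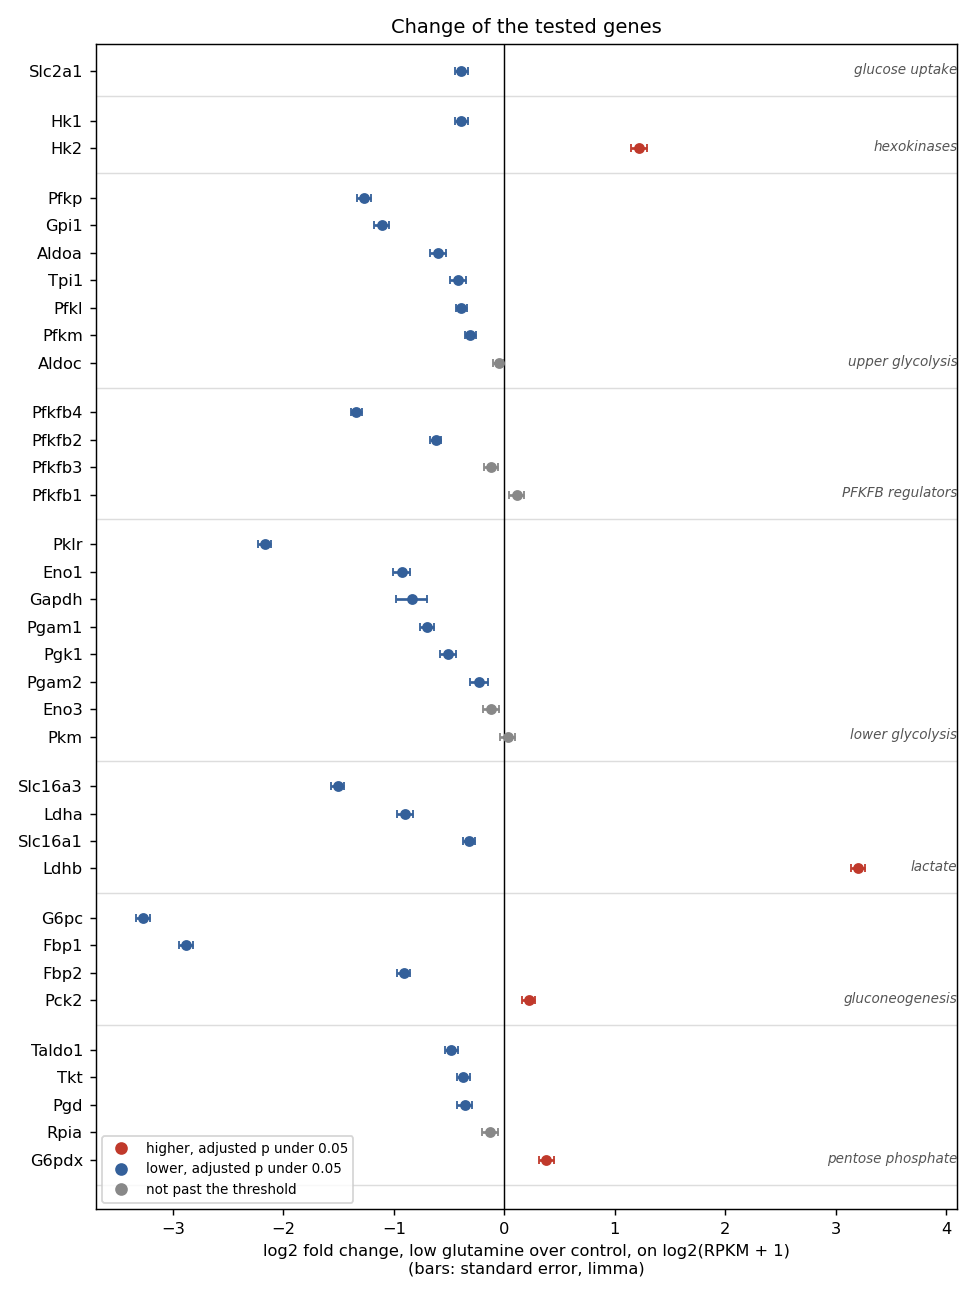
Log2 fold change of each of the 35 tested genes, low glutamine over control on log2(RPKM + 1), with standard errors from limma, ordered within each role. Blue points (25 genes) passed the threshold below 0, red points (4 genes) above 0, and grey points (6 genes) did not pass.

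In lower glycolysis 6 of 8 tested genes fell and 0 rose, where 30.3% of all tested genes fell and 36.1% rose. The contrast lay between the 2 pyruvate kinase genes, which make pyruvate and ATP from phosphoenolpyruvate. Pklr, the liver and red cell form (chromosome 3, 89136122 to 89146815), had 59.2, 58 and 64 RPKM in low glutamine against 268, 282 and 273 RPKM in control. No value came near the other group, and the log2 fold change was -2.17 ± 0.06 (limma adjusted p = 1.3e-11). Its exons overlap those of the channel gene Hcn3, which averaged 1.34 RPKM in low glutamine and 4.55 RPKM in control. Pkm, which encodes the M1 and M2 forms (chromosome 9, 59656576 to 59679372), had 841, 821 and 895 RPKM in low glutamine and 833, 851 and 815 RPKM in control. These values overlapped, and Pkm did not pass (0.03 ± 0.07, limma adjusted p = 0.69), though it passed as higher after rescaling to a common RPKM sum (0.16) and turned to -0.06 with median-of-ratios scaling. A gene-level value does not separate the M1 from the M2 form. Pklr was 6.57%, 6.59% and 6.67% of the pyruvate kinase sum in low glutamine, against 24.3%, 24.9% and 25.1% in control.

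Pgk1, the first ATP-making enzyme of glycolysis and X-linked, fell by 0.51, with 740.1, 711 and 798 RPKM in low glutamine and 1064, 1075 and 1058 RPKM in control. Pgam1, which moves the phosphate of phosphoglycerate, fell by 0.70 (234 RPKM in low glutamine, 379.9 RPKM in control). Its muscle paralog Pgam2 was near the limit at 0.94 and 1.29 RPKM in low glutamine and control and fell by 0.23 (limma adjusted p = 0.02). Pgam2 did not pass without low glutamine replicate 2 (adjusted p = 0.061) or without control replicate 3 (adjusted p = 0.089). Nor did it pass with a common RPKM sum (adjusted p = 0.08) or with that sum without Rn45s (adjusted p = 0.11). The muscle enolase Eno3 averaged 1.69 and 1.93 RPKM in low glutamine and control and did not pass (limma adjusted p = 0.14), and the neuronal Eno2 was below 0.1 RPKM in every library.

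Gapdh and Eno1 need care, since much of their sequence is shared with other gene copies. Gapdh, which makes the NADH of glycolysis, had 60.5, 60.7 and 90.5 RPKM in low glutamine against 112, 119.6 and 146 RPKM in control, with replicate 3 the highest of each group. The groups did not overlap (log2 fold change -0.84 ± 0.14, limma adjusted p = 1.8e-04). Its level was several times below that of Pgk1, the next enzyme of the route, and 82.5% of its 50-base stretches occurred in other GENCODE transcripts, which belong to 222 genes. Eno1, the ubiquitous enolase, had 68.3, 59.3 and 77.9 RPKM in low glutamine against 134, 126 and 131 RPKM in control (-0.93 ± 0.08, limma adjusted p = 9.4e-07). The retrogene Eno1b holds 70.5% of its 50-base stretches. Eno1b was listed at 331 ± 9.18 RPKM in low glutamine and 588 ± 23.8 RPKM in control, above Eno1 itself. The sum of Eno1 and Eno1b was 399 ± 18.4 RPKM in low glutamine and 719 ± 21.2 RPKM in control (SD, n = 3 each), lower in low glutamine as each of them was. Sharing of this kind was also seen for Pgk1 (68%, almost all with Pgk1-rs7), Pgam1 (41.5%) and Pkm (34.4%). How the authors counted reads that fit several genes is not given in the sources used here, so the levels of these genes are uncertain.

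At the lactate step Ldha fell and the far less abundant Ldhb rose. Ldha, the form that favours lactate production (chromosome 7, 46842274 to 46855627), had 517, 499 and 539 RPKM in low glutamine against 968, 1001 and 936 RPKM in control. The log2 fold change was -0.90 ± 0.07 (limma adjusted p = 1.6e-07). Ldhb, the heart form that favours the return of lactate to pyruvate (chromosome 6, 142490249 to 142507957), had 12.3, 12.2 and 13.2 RPKM in low glutamine against 0.516, 0.433 and 0.471 RPKM in control. It had the largest rise of the 35 genes, a log2 fold change of 3.20 ± 0.06 (limma adjusted p = 3.4e-13) and a ratio of mean RPKM of 26.5. With pseudocounts of 0.1 and 5 in place of 1 the log2 fold change of Ldhb was 4.46 and 1.68. The control values rest on an estimated 15 to 21 reads per library, and the low glutamine values on 486 to 544. Ldhb was still a small part of the lactate dehydrogenase sum, 2.36% ± 0.0374 in low glutamine and 0.0489% ± 0.00513 in control, and the sum was 531 ± 20.6 RPKM in low glutamine and 969 ± 32.7 RPKM in control. Of the Ldhb transcript, 27% of the 50-base stretches also occur in the gene Gm5514.

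Lactate leaves and enters cells through MCT1 and MCT4. Slc16a3 (MCT4, the low-affinity exporter of glycolytic cells, chromosome 11, 120948484 to 120959000) had 18.7, 18 and 19.8 RPKM in low glutamine against 54.3, 60.4 and 52.4 RPKM in control. The groups were well apart (-1.51 ± 0.06, limma adjusted p = 6.7e-10). Slc16a1 (MCT1, which also carries butyrate in the gut) fell by 0.32, to 27.8 ± 1.33 RPKM in low glutamine against 34.9 ± 1.07 RPKM in control (SD, n = 3 each). Slc16a3 made up 40.4% of the pair's RPKM in low glutamine and 61.4% in control, so the more abundant transporter was Slc16a1 in low glutamine and Slc16a3 in control. Bsg, the chaperone that brings both to the membrane, is not among the 39 and rose, at 758 ± 29.7 RPKM in low glutamine and 521 ± 12.6 RPKM in control (log2 fold change 0.54, limma adjusted p = 1.4e-05).

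**Figure D4:**
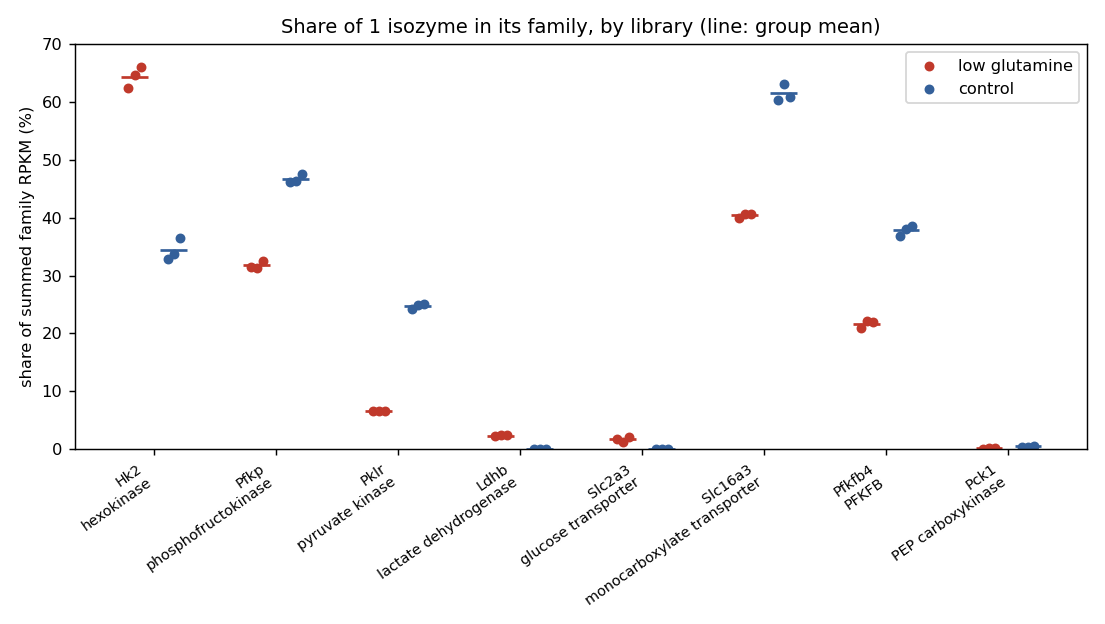
Share of the named gene in the summed RPKM of its family for each library, low glutamine in red left of control in blue, with a line at the group mean. Enolase is left out because of the copy Eno1b. The groups are apart in all 8 families shown, with Hk2 at 62.4% to 66% in low glutamine against 32.8% to 36.5% in control. Single genes were without overlap in 70.2% of all tested genes.

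In all 9 families reported (the 8 in the plot of isozyme shares and enolase) the 3 low glutamine shares lay on 1 side of the 3 control shares. For single genes, no overlap was seen in 70.2% of all tested genes. The isozyme of each family was chosen by hand. The shares of Slc2a3 and Pck1 rest on untested genes with few reads. An exact two-sided permutation test gave p = 0.1 for each family, with the same value after Benjamini-Hochberg adjustment over the 10 families compared. That is the smallest p that 3 against 3 libraries allow, so these shares could not pass a threshold of 0.05.

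Of the 4 tested gluconeogenesis genes 3 fell and Pck2 rose, where 30.3% of all tested genes fell and 36.1% rose. G6pc and Fbp1 had the lowest log2 fold changes of the 35 genes. G6pc (chromosome 11, 101367716 to 101377903) is a catalytic subunit of glucose-6-phosphatase, which releases free glucose. It had 0.156, 0.188 and 0.172 RPKM in low glutamine against 9.98, 10.8 and 10.1 RPKM in control. The ratio of mean RPKM, control over low glutamine, was 59.7, and the log2 fold change was -3.27 ± 0.06 (limma adjusted p = 3.4e-13). With pseudocounts of 0.1 and 5 the log2 fold change of G6pc was -5.25 and -1.56. The low glutamine values rest on an estimated 12 to 15 reads per library, against 594 to 923 in control. Fbp1, fructose bisphosphatase of liver and gut (chromosome 13, 62864753 to 62888298), had 5.54, 4.93 and 5.53 RPKM in low glutamine against 42.9, 49.1 and 44.6 RPKM in control. This was a log2 fold change of -2.88 ± 0.06 (limma adjusted p = 2.1e-12).

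Fbp2, the muscle form of the same enzyme and the neighbour of Fbp1 on chromosome 13, was the more abundant of the pair and fell less. It averaged 63.3 ± 3.55 RPKM in low glutamine and 119.9 ± 3.87 RPKM in control (SD, n = 3 each; -0.91, limma adjusted p = 4.1e-08). Fbp1 was 7.77% of the summed RPKM of both in low glutamine and 27.5% in control. Pck2, the mitochondrial PEP carboxykinase and a known target of ATF4, went the other way with 24.1, 23.3 and 23.5 RPKM in low glutamine against 21.3, 20.4 and 18.9 RPKM in control. The difference was small but without overlap (0.22 ± 0.06, limma adjusted p = 0.004). Pck1, the cytosolic form, was not tested and stood at 0.0225 to 0.0696 RPKM in low glutamine and 0.0972 to 0.11 RPKM in control, on an estimated 2 to 9 reads per library.

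In the pentose phosphate pathway G6pdx, of the first step, rose, while Pgd, Tkt and Taldo1 fell and Rpia did not pass. Among all tested genes 36.1% rose and 30.3% fell. G6pdx, glucose-6-phosphate dehydrogenase (chromosome X, 74409483 to 74428880), had 36.4, 34.4 and 41.4 RPKM in low glutamine against 28.4, 27.7 and 29.3 RPKM in control. The groups did not overlap (0.38 ± 0.07, limma adjusted p = 3.2e-04). The gene is X-linked, in libraries that differ in Xist as given above, and the part of that difference in its rise was not tested. Pgd, the next NADPH-making enzyme, fell by 0.36 (101 ± 9.1 RPKM in low glutamine, 129 ± 4.02 RPKM in control). The carbon-shuffling enzymes Tkt and Taldo1 fell, with log2 fold changes of -0.37 and -0.48, at 198 and 147 RPKM in low glutamine against 257 and 205 RPKM in control. Rpia, which makes ribose 5-phosphate, did not pass, with 21.1, 19.8 and 23.9 RPKM in low glutamine and 24, 23.5 and 23.6 RPKM in control (limma adjusted p = 0.1). It passed as lower without low glutamine replicate 3 (-0.20, adjusted p = 0.004) and with median-of-ratios scaling (-0.22, adjusted p = 0.0032), and stood at 0.02 with the common RPKM sum without Rn45s.

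Of 80 further genes of these pathways, 62 were tested, of which 41 fell, 12 rose and 9 did not pass. Among all tested genes 30.3% fell and 36.1% rose. With the common RPKM sum without Rn45s, 34 of the further genes fell and 18 rose, beside 2388 and 6021 over all genes. The median log2 fold change of the 62 genes was -0.39, against 0.03 for all tested genes. Steep falls were seen in sugar entry and fructose handling. The glucose transporter Slc2a2 (GLUT2) averaged 4.24 RPKM in low glutamine and 42.7 RPKM in control, and the fructose transporter Slc2a5 (GLUT5) 2.82 and 23.8 RPKM. Ketohexokinase (Khk) and triokinase (Tkfc), which act on the route of fructose into glycolysis, fell with log2 fold changes of -2.57 and -2.49. The sodium-coupled glucose transporter Slc5a1 averaged 38.7 ± 2.62 RPKM in low glutamine and 208 ± 8.22 RPKM in control. Slc5a1 and Slc2a5 are also among the enterocyte markers above.

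The rises were smaller. Pdp1 and Pdk3, a phosphatase and a kinase that switch pyruvate dehydrogenase on and off, rose by 0.69 and 0.52, and Pdk3 is X-linked. Their relatives Pdk1, Pdk2 and Pdp2 fell, with log2 fold changes of -0.47, -0.52 and -0.53, and Pdk4 was not tested. Pdk1 was the more abundant kinase, at 43.8 RPKM in low glutamine and 61 RPKM in control, against 14.3 and 9.74 RPKM for Pdk3. Pdp2 averaged 9.49 RPKM in low glutamine and 14.1 RPKM in control, against 2.86 and 1.4 RPKM for Pdp1. The D-lactate dehydrogenase Ldhd rose by 0.49 and Gnpnat1, of hexosamine synthesis, by 0.41. Of the same route, Gfpt1 fell, at 30.5 RPKM in low glutamine and 61.4 RPKM in control (-0.99, limma adjusted p = 1.4e-08). Pgm3, also of that route, did not pass (-0.12, limma adjusted p = 0.093). Both subunits of the mitochondrial pyruvate carrier fell, with Mpc1 at 50.2 RPKM in low glutamine and 91.6 RPKM in control and Mpc2 at 33.8 and 53 RPKM. The X-linked Prps1 and Prps2, which use ribose 5-phosphate for nucleotide synthesis, rose by 0.38 and 0.31. On autosomes alone 3 of 32 pathway genes rose and 24 fell, and 9 of 59 of the further genes rose and 41 fell, where 3841 of all 10720 autosomal genes rose and 3272 fell.

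**Figure D5:**
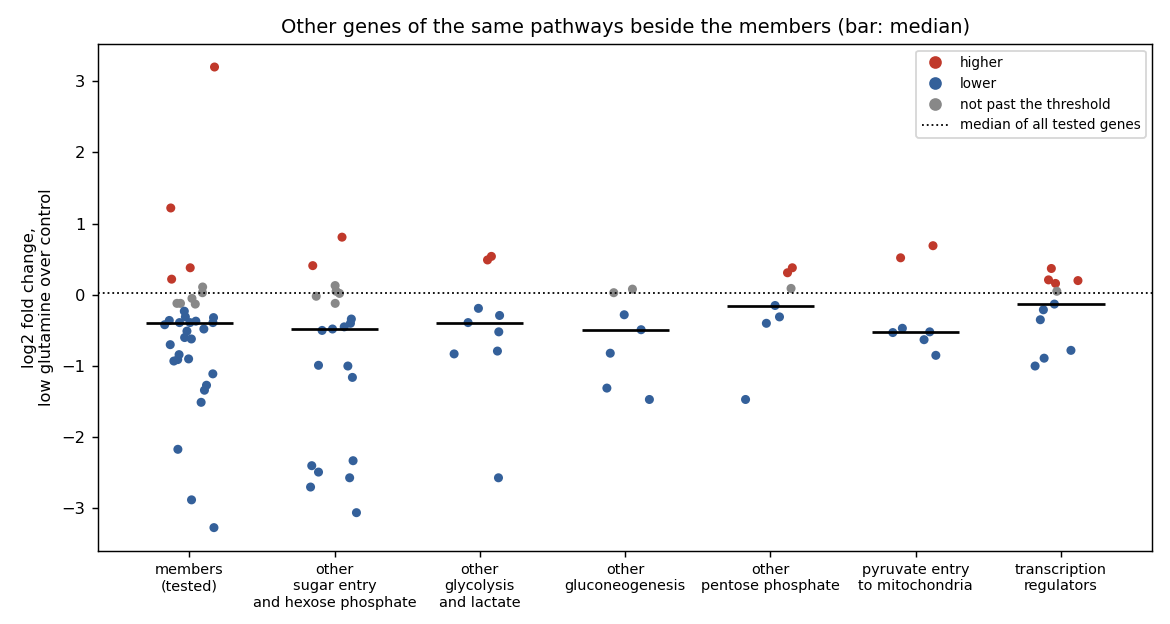
Log2 fold change of each tested gene, low glutamine over control, for the 35 tested members and 6 classes of further pathway genes, with a bar at each median and a dotted line at the median of all tested genes (0.03). The median of the members and of each class lies below 0.

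Among 11 genes grouped here as transcription regulators of these pathways, 4 rose, 6 fell and Crtc2 did not pass, where 36.1% of all tested genes rose and 30.3% fell. ChREBP (Mlxipl), which binds the carbohydrate response element, averaged 39.3 ± 1.19 RPKM in low glutamine and 68.4 ± 4.22 RPKM in control (SD, n = 3 each; -0.78, limma adjusted p = 1.7e-07). Its partner Mlx averaged 14.4 ± 0.942 RPKM in low glutamine and 27.5 ± 0.106 RPKM in control (-0.89, limma adjusted p = 3.0e-08). The related Mlxip rose by 0.37. Txnip, counted among the 4 that rose though better known as a target of ChREBP, rose by 0.16 (limma adjusted p = 0.04). Ppargc1a, a coactivator of gluconeogenic genes, fell, averaging 1.06 RPKM in low glutamine and 3.12 RPKM in control (limma adjusted p = 2.1e-07). Hif1a rose by 0.20, at 18.6 RPKM in low glutamine and 16.1 RPKM in control. Its relative Epas1 fell by 0.21 (limma adjusted p = 0.012), and the Hif1a partner Arnt fell by 0.13 (limma adjusted p = 0.045). The median of all genes moved from 0.03 to 0.17 or -0.05 with the scaling. Changes as small as those of Txnip and Arnt may depend on it, and other scalings are not reported here for single regulators.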

How the data were processed

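RNA-seq was deposited as 1 table of RPKM values with 1 column per library, made by the authors. HISAT2 2.0.4, CASAVA 1.8, Partek and the build mm10 are listed, without their roles, in the submitters' processing notes. Strandedness, annotation and counting rule are not given in the sources used here. RPKM is not a count, so no count test was run. Depth was estimated as the read total at which values below 0.3 RPKM of single-exon genes became whole reads within 0.02, and 64.1% to 70.2% did per library.

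The test was limma 3.58.1 (R 4.3.3) on log2(RPKM + 1) with a variance trend, for the 11082 genes averaging at least 1 RPKM, as a two-sided test. P-values were adjusted by Benjamini-Hochberg over these genes and called at 0.05. It was tested on simulated data. Tables and plots used Python 3.11.15, pandas 2.3.3, numpy 2.4.6 and matplotlib 3.10.9. Shared 50-base stretches were counted exactly, on either strand, between the longest coding transcript of a gene and all GENCODE M21 transcripts. Gene bounds and promoters are RefSeq's on GRCm38.p6.

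The members and gene lists were chosen with earlier results of these data known. Values in every library are given for the 3 highest and 6 lowest fold changes that passed, the most abundant isozyme of each family, and members that passed against the main direction, and further pathway genes are named from the 6 highest and 6 lowest. Some results are not reported here. Other genes with such detail, and the carbohydrate response element search, were chosen after their values had been seen. Replicate numbers 1 to 3 occur in both groups, and deviations of same-numbered libraries correlated at 0.15, 0.25 and 0.57, which met the rule of over 0.1 for pairing. Low glutamine replicate 1 correlated best with control replicate 2 (0.36). The limma values above come from the unpaired fit, and the counts with replicate number as a block are given below.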

Additional observations from a re-analysis of the deposited data

How the results depend on the processing

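Over the member genes and settings, 565 values kept direction and call, 12 kept direction and passed where they had not, 4 (all Pgam2) no longer passed and 8 changed sign, all of them in genes that had not passed. The replicate number as a block changed no call among them (4 rose and 25 fell). Leaving out 1 library at a time left 4 rising and 24 to 26 falling members, 11 to 12 rising and 38 to 40 falling further pathway genes, 3666 to 3962 rising and 2953 to 3636 falling genes over all, and a member median of -0.44 to -0.36. With each library rescaled to a common RPKM sum, 6 members rose and 24 fell (median -0.27), while the median of all genes moved from 0.03 to 0.14. With Rn45s left out of that sum, 7 rose and 24 fell (median -0.25) and 6021 genes rose and 2388 fell over all, with a median of 0.17. With median-of-ratios scaling 4 members rose and 29 fell, 3282 genes rose and 4491 fell over all, and the median of all genes was -0.05. With quantile normalization 6 members rose and 27 fell. With a mean of at least 5 RPKM 2532 genes rose over all and their median was -0.01, where fewer genes were tested (7994). The changes of sign were Aldoc at 0.08, 0.11 and 0.09 with the common sum, the same without Rn45s and quantile normalization, Pfkfb1 at -0.14 with quantile normalization, Pfkfb3 and Rpia at 0.02 each with the common sum without Rn45s, and Pkm at -0.06 with median-of-ratios scaling and -0.00 without low glutamine replicate 3 (-0.00 to 0.06 over the libraries left out). Pkm passed as higher with both common sums (0.16 and 0.19) and quantile normalization (0.16), so its call depends on the scaling. Pseudocounts of 0.1 and 5 moved G6pc to -5.25 and -1.56 and Ldhb to 4.46 and 1.68. With no filter 5 members rose and 26 fell of 38, and 5697 genes rose and 3499 fell over all. The cause of these moves was not tested. Slc2a3, Eno2 and Pck1 rest on at most 50 estimated reads per library, which limits their precision.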
